A study of Schmidtea mediterranea with 18 samples.

Results

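The 6 control RNAi libraries of the series were compared as 2 groups, the late days 4, 5 and 6 against the early days 1, 2 and 3 after amputation, with 3 libraries on each side. They were chosen by treatment and day from the 18 libraries of the study. Regenerating trunk fragments came from wildtype animals of the asexual clonal strain CIW4 of Schmidtea mediterranea, a planarian flatworm, and their polyA RNA was sequenced. Animals had been fed double-stranded RNA for GFP (the control, a sequence foreign to the worm), for APC or for Bcat (beta-catenin-1), in 3 feeds, and were cut 3 days after the last one. The APC RNAi and Bcat RNAi libraries, 6 of each and 1 per day, are used below only as libraries in which the control changes could be read again. All animals were starved and fed RNAi food in the same way, so no library shows an uncut or unfed worm. Each library was made from RNA pooled over 3 biological replicates. The days of a group therefore stand in for replicates, and the spread within a group holds real change from day to day as well as differences between pools. One label field names tail fragments where the others name trunks. Trunk is used here.

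Planarians rebuild missing parts from pluripotent stem cells called neoblasts. A cut is followed by a wound response in muscle and epidermis and by a burst of stem cell division. A blastema then grows, its cells differentiate, and the old tissue is remodelled to fit the new body. Transcripts carry identifiers without gene names in the files, so neither tissue markers nor sequences could be read. For late against early, only the 2 largest changes each way among eligible transcripts are shown by identifier. Eligible transcripts have an adjusted p under 0.05, a mean of at least 1 on the log2 CPM scale and no overlap between groups. In RNA of whole fragments, fewer cells of a type and less RNA per cell cannot be told apart.

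Control libraries held between 47683039 and 58308153 aligned reads. The libraries followed the order of the days: on the first principal component of 15508 transcripts, which took 61.9% of the variance, day 1 stood at -26.4, day 3 at -2.31, day 4 at 7.48 and day 6 at 24.3. Rare transcripts took a growing part of the reads. Rare here means a mean under 1 CPM (read counts scaled to library size) over the 6 control libraries, the same list for every library. The share of these transcripts was 0.821%, 0.964% and 1.08% on days 1, 2 and 3 and 1.12%, 1.14% and 1.27% on days 4, 5 and 6. It averaged 0.955% ± 0.13 early and 1.18% ± 0.0821 late (SD, n = 3), with no overlap between the groups. An exact two-sided permutation test gave p = 0.1, the smallest that 3 against 3 allows, and 0.267 after Benjamini-Hochberg adjustment over 4 such values. Scaled down to 40 M reads per library, early libraries detected 72380 ± 2220 transcripts and late ones 74470 ± 897 (exact p = 0.2, adjusted 0.267). Day 1 had the fewest, 69882. Unaligned reads were 5.12% ± 0.82 early and 5.75% ± 0.209 late (exact p = 0.4). The 100 most abundant transcripts took 31.4% ± 0.393 and 30.5% ± 0.778 of the reads (exact p = 0.2).

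**Figure D1:**
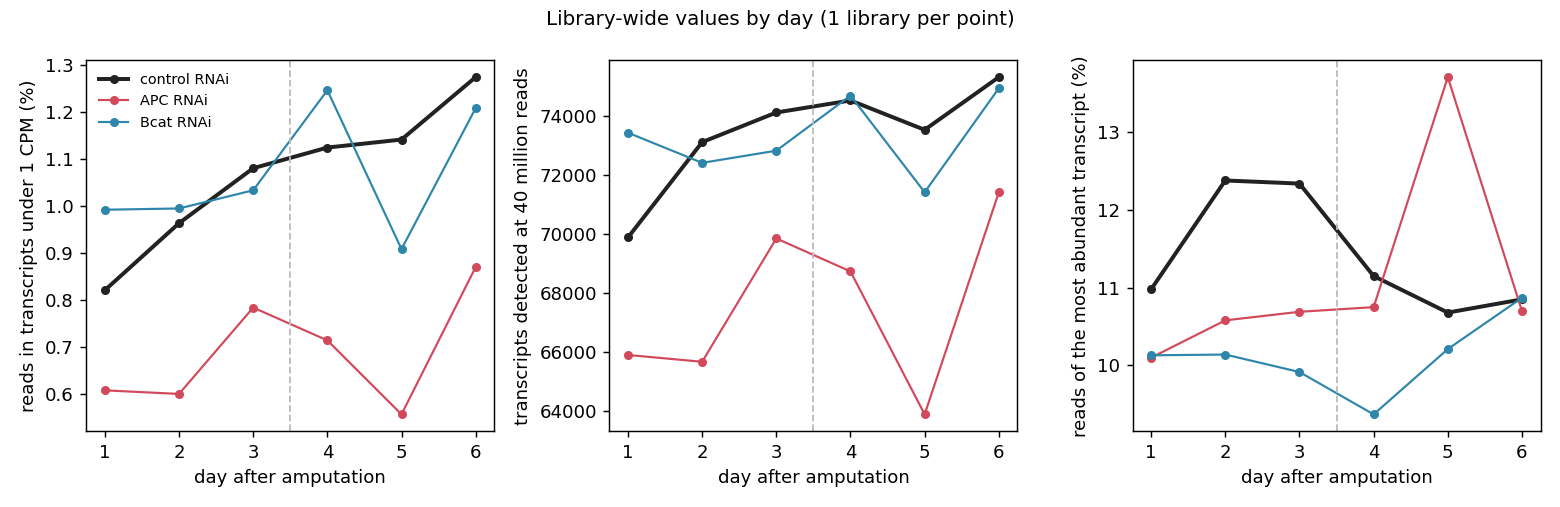
Library-wide values by day after amputation for the 3 treatments, 1 library per point; the dashed line separates early from late days. Transcripts with a mean under 1 CPM over the control libraries took 0.821% of the control reads on day 1 and 1.27% on day 6. The APC RNAi library of day 5 stood apart, with 13.7% of its reads in the most abundant transcript.

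The comparison of late with early days asked which transcripts differ between these days in control fragments. Late libraries are also further from the last feed, and each day is 1 pool. Regeneration, time since the last feed and day of collection therefore cannot be told apart. SmedASXL_006360 fell most. It stood at 47.7, 42.3 and 33.3 CPM on days 1, 2 and 3, and at 1.98, 0.859 and 1.36 CPM on days 4, 5 and 6. The early days were all high and the late days all low, and the drop between day 3 and day 4 alone was 16.8-fold. Means were 41.1 CPM ± 7.3 early and 1.4 CPM ± 0.56 late (SD, n = 3), a log2 ratio of -4.89 ± 0.19 (SE; edgeR adjusted p = 4.67e-11). The late values still rested on 48 to 98 reads per library.

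SmedASXL_004185 fell more gradually. Its level was 71.8, 93.5 and 51.3 CPM on days 1 to 3 and 14.1, 4.63 and 3.12 CPM on days 4 to 6. It peaked on day 2 and went down at every later step. The mean fell 9.93-fold, from 72.2 CPM ± 21.1 to 7.27 CPM ± 5.93 (SD, n = 3), a log2 ratio of -3.32 ± 0.34 (SE; edgeR adjusted p = 0.000144). The next largest fall among eligible transcripts was of the same size, -3.32 on the log2 scale.

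The largest rises among eligible transcripts were smaller. Over all called transcripts the largest rise was 2.6 on the log2 scale. SmedASXL_008433 had 1.12, 0.913 and 1.68 CPM on days 1 to 3 and 2.66, 4.88 and 4.81 CPM on days 4 to 6. It was lowest on day 2, went up 1.84-fold from day 2 to day 3 within the early group, and reached its highest levels on days 5 and 6. The mean rose 3.32-fold, from 1.24 CPM ± 0.396 to 4.12 CPM ± 1.26, a log2 ratio of 1.72 ± 0.23 (SE; edgeR adjusted p = 0.00129). SmedASXL_010173 had 3.17, 2.76 and 7.94 CPM on days 1 to 3 and 10.7, 12.9 and 13.5 CPM on days 4 to 6. Its main step came a day before the boundary between the groups, from day 2 to day 3, yet the groups did not overlap. Its log2 ratio was 1.41 ± 0.25 (SE; edgeR adjusted p = 0.00928), with means of 4.62 CPM ± 2.88 and 12.4 CPM ± 1.49. This call was lost without day 5 (1.38, adjusted p = 0.0596) and without day 6 (1.33, adjusted p = 0.0801, edgeR). With the spread taken from all 18 libraries both rises missed the threshold, with adjusted p = 0.113 for SmedASXL_008433 and 0.0646 for SmedASXL_010173 (edgeR). With days 2 and 3 against days 4 and 5 alone both missed it again, at 1.53 (adjusted p = 0.0643) and 1.12 (adjusted p = 0.194, edgeR). SmedASXL_008433 kept its call in 12 and SmedASXL_010173 in 10 of 14 alternative analyses. Both falls passed in all 14, with a highest adjusted p of 0.00432 for SmedASXL_006360 and 0.0194 for SmedASXL_004185 (edgeR or DESeq2).

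**Figure D2:**
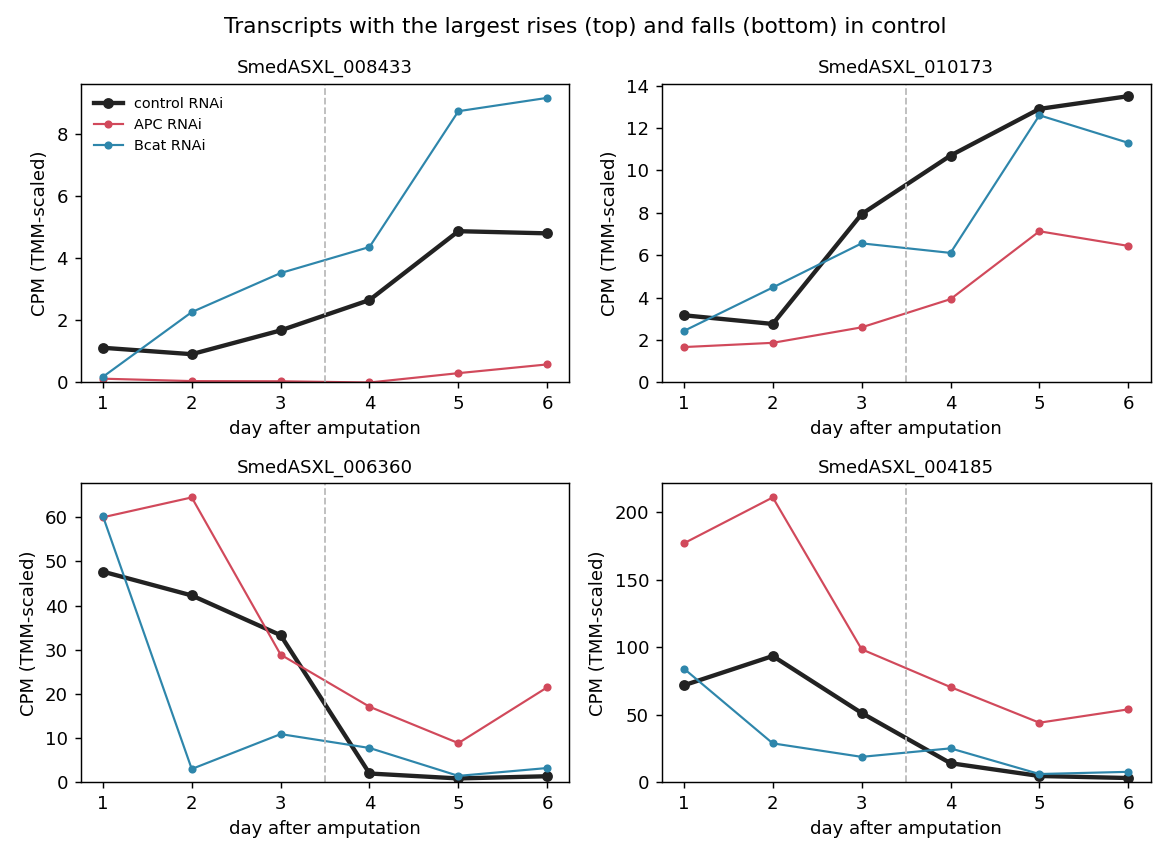
CPM by day after amputation of the 2 transcripts with the largest rise (top) and the 2 with the largest fall (bottom) in control, among eligible transcripts. Each point is 1 library, control in black, APC RNAi in red, Bcat RNAi in blue, and the dashed line separates early from late days. In control SmedASXL_006360 drops from 33.3 to 1.98 CPM between days 3 and 4, while in Bcat RNAi it has dropped to 3 CPM by day 2.

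In all, 292 transcripts (0.794% of 36775 tested) were higher and 328 (0.892%) lower on the late days (edgeR quasi-likelihood test, at an adjusted p under 0.05). Most changes were modest: 353 of the 620 calls (56.9%) were below 1.5-fold. At least 2-fold were 25 of the higher transcripts (0.068% of those tested) and 55 of the lower ones (0.15%). At least 8-fold were 0 of the higher and 8 of the lower ones. The median log2 change was 0.54 among the 292 and -0.55 among the 328, against 0.06 over all tested transcripts. The lower transcripts together took 2.77% ± 0.31 of the reads early and 1.94% ± 0.131 late, and the higher ones 0.958% ± 0.141 and 1.47% ± 0.152 (SD, n = 3). These shares describe sets that were chosen on the same libraries.

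Rising and falling transcripts differed in abundance. The median mean level was 12.1 CPM over the 292 rises and 27.5 CPM over the 328 falls. The 25 that rose at least 2-fold had a median of 0.448 CPM, and 17 of them lay under 1 CPM, as did 18062 of the 36775 tested transcripts. The 55 that fell at least 2-fold had a median of 8.8 CPM, and 14 lay under 1 CPM. Of the 2669 transcripts of 64 CPM or more, 26 were higher and 82 lower late, 6 of the lower ones at least 2-fold. Of the 5070 between 4 and 16 CPM, 107 were higher and 75 lower. Over all tested transcripts the median log2 change went from 0.22 under 1 CPM to -0.10 at 64 CPM or more, in the same direction as the share of rare transcripts above, whose part in these calls was not tested. With offsets that remove this shift with abundance, 13 of the 25 and 52 of the 55 were still called.

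The split between higher and lower moved with the scaling. It was 231 to 435 with RLE size factors, 496 to 175 with TMM factors of the transcripts at or above 4 CPM, and 416 to 254 with loess offsets. It was 397 to 1056 with DESeq2. In these 4 analyses 186 of the higher and 154 of the lower ones were called in all 4. All 620 transcripts kept their direction, which is little check, because the same 6 libraries were used. The smallest called log2 changes were 0.353 and -0.338. The median over all tested transcripts lay between -0.00183 and 0.145 in the 4. The number of calls moved more with single libraries. It was 128 higher and 135 lower without day 1, 76 and 114 without day 2, 821 and 1599 without day 3, 27 and 48 without day 5, and 13 and 40 without day 6. Without day 4 it was 330 and 339. With the spread of all 18 libraries 9 were higher and 62 lower, and with days 2 and 3 against days 4 and 5 alone 6 and 32. Called in all 12 of these analyses were 23 lower transcripts, with a median log2 change of -1.79, and 3 higher ones, with a median of 0.80. Of the 55 large falls 20 were among them, and of the 25 large rises 0.

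Groups that do not overlap were far more frequent than calls: 4858 transcripts (13.2%) had all late libraries above all early ones, and 4098 (11.1%) all below. Of the 292 higher calls 290 were of this kind, and of the 328 lower calls 318. Calls and overlap were read on the same values. Movement in 1 direction at every one of the 5 daily steps was seen in 67 of the higher and 114 of the lower calls. Over all tested transcripts it was seen upwards in 444 and downwards in 936. Lowest levels of the falling transcripts lay on day 6 for 274 of 328, and highest levels on day 1 for 214 and on day 2 for 108. Highest levels of the rising transcripts lay on day 6 for 175 of 292, on day 5 for 101 and on day 4 for 16.

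Among the changes of at least 2-fold, the median course by day differed between rises and falls. The 2 sets are unlike in other ways: their median levels were 0.448 CPM for the 25 rises and 8.8 CPM for the 55 falls. Of the rises 0, and of the falls 20, were called in all 12 alternative analyses above. The part of abundance in the difference between the courses was not tested. Relative to their own mean over days 1 to 3, the 55 large falls had a median log2 level of 0.26 on day 1, 0.22 on day 2, -0.52 on day 3, -1.17 on day 4, -1.59 on day 5 and -1.83 on day 6. This median was nearly level over the first 2 days and then went down each day. Single transcripts varied: 12 of the 55 went down at every step, and 37 were lowest on day 6. The 25 large rises stood at -0.17, -0.14 and 0.33 on days 1 to 3 and at 1.28, 1.14 and 1.38 on days 4 to 6. Their median moved mainly in 1 step and then stayed level. The full called sets differed less. All 292 rises had medians of 0.12 on day 3, 0.39 on day 4 and 0.59 on day 6. All 328 falls had -0.22, -0.44 and -0.73 on those days. The largest daily rise of the large rises came between days 3 and 4 for 20 of the 25, and at no other step for more than 3. Over all 292 rises it came between days 3 and 4 for 133, and at the other steps, in order, for 31, 54, 64 and 10. The largest daily fall was spread out: 4 of the 55 had it between days 1 and 2, 17 between days 2 and 3, 16 between days 3 and 4, and 9 at each of the last 2 steps. Over all 328 falls it came at the 5 steps, in order, for 53, 112, 90, 22 and 51. A comparison split after day 3 favours transcripts that step there, so these counts describe the called sets and not regeneration as a whole.

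**Figure D3:**
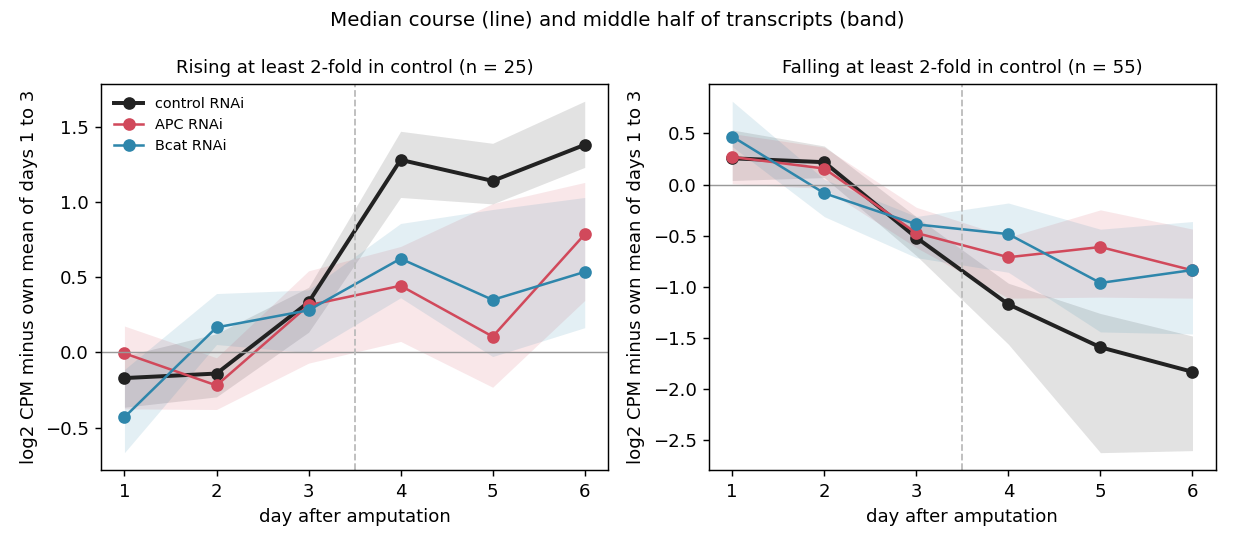
Median log2 level by day relative to the mean of days 1 to 3 of the same treatment, for the 25 transcripts that rose and the 55 that fell at least 2-fold in control; lines are medians over transcripts and bands the range from the lower to the upper quartile. In control the rises go from 0.33 on day 3 to 1.28 on day 4 and stay level, and the falls reach -1.83 on day 6; the transcripts were chosen on the control libraries, which favours the control lines.

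Over single days, changes were few. Among 13223 transcripts averaging 4 CPM or more, 33 (0.25%) differed at least 2-fold between days 1 and 2, 25 of them upwards. Between days 2 and 3 it was 9 (0.0681%), between days 3 and 4 it was 11 (0.0832%), 10 of them downwards, and between days 4 and 5 it was 10 (0.0756%). Between days 5 and 6 it was 16 (0.121%), 12 of them downwards. The median absolute log2 difference was 0.12 between days 1 and 2, 0.12 between days 5 and 6 and 0.09 to 0.10 at the steps between. With 1 library per day these counts have no replicate check.

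A slope over the 6 days does not depend on where the days are split. By this test 1999 transcripts (5.44%) went up and 3501 (9.52%) went down (edgeR quasi-likelihood test, adjusted p under 0.05). Of the 620 transcripts called late against early, 616 (99.4%) also had a slope called in the same direction, and they made up 11.2% of the 5500 slope calls. Both tests use the same libraries. Transcripts that went up had a median level of 3.56 CPM and a median log2 change of 0.78 from day 1 to day 6, and 522 of them were under 1 CPM. Those that went down had a median level of 32.8 CPM and a median change of -0.49, and 1045 of them were at 64 CPM or more. SmedASXL_006360 fell by 1.28 log2 units per day ± 0.17 (SE; edgeR adjusted p = 0.000165) and SmedASXL_008433 rose by 0.53 ± 0.056 (SE; edgeR adjusted p = 3.01e-05).

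The largest step of the slope calls had no concentration between days 3 and 4. Of the 3501 falling transcripts 27.7% had it between days 1 and 2, 9.83% between days 3 and 4 and 31.3% between days 5 and 6. Of the 1999 rising ones 25.6% had it at the first step, 19.4% between days 3 and 4 and 11.1% at the last. The split turned with the scaling, to 3468 up and 1456 down with TMM factors of the transcripts at or above 4 CPM, 1576 and 4877 by RLE size factors, 1628 and 1706 by loess offsets and 1174 and 5120 with DESeq2. Without day 1 it was 1188 and 1928, and without day 6 it was 680 and 1500.

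**Figure D4:**
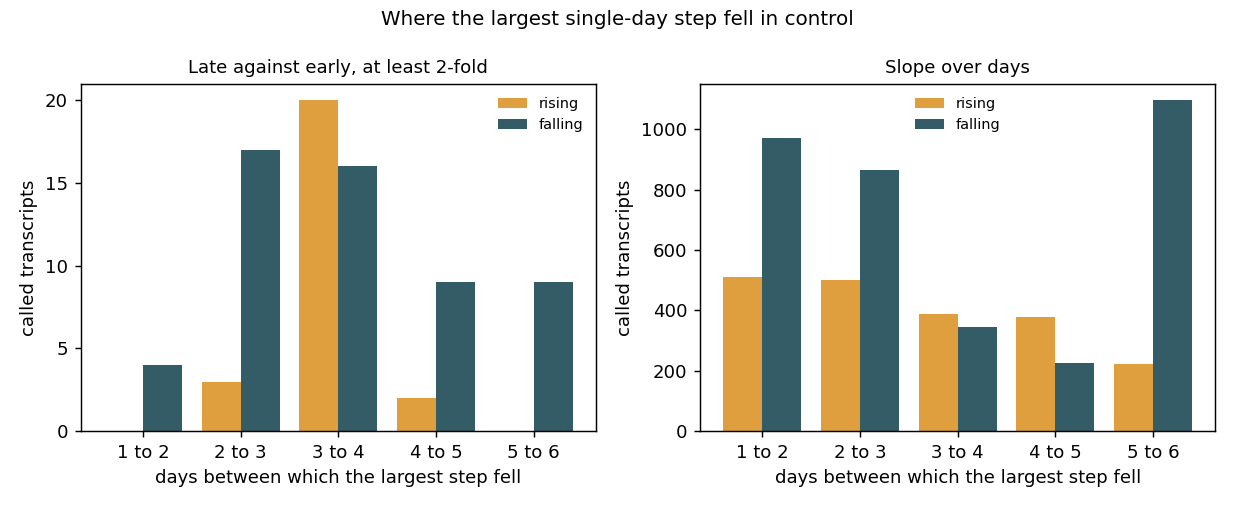
Number of called transcripts whose largest daily step in the called direction fell between each pair of days in control, for changes of at least 2-fold late against early (left) and for slope calls (right). On the left 20 of 25 rises fall between days 3 and 4; on the right the falls are most frequent between days 5 and 6, with 1096, and between days 1 and 2, with 971.

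The knockdown libraries share no library with the control, so the control calls could be read there again. Of the 292 higher transcripts, 282 were tested in APC RNAi, and 277 of these (98.2%) were higher late there too, where 52.1% of all transcripts tested in both were. Of the 328 lower ones, 307 of 326 (94.2%) were lower in APC RNAi, where 47.9% of all were. In Bcat RNAi 283 of 289 (97.9%) were higher, against 50.2% of all, and 310 of 325 (95.4%) were lower, against 49.8%. Transcripts are not independent replicates, and these shares are a description. The treatments also share the days after amputation, and some library values moved with the day in each of them. Mean unaligned reads were 5.12% ± 0.82 early and 5.75% ± 0.209 late in control (SD). They were 4.59% ± 0.964 and 5.17% ± 0.298 in APC RNAi, and 5.12% ± 0.615 and 5.61% ± 0.0878 in Bcat RNAi. The part of any handling effect common to a day in the shared direction was not tested. The median log2 change of the higher set was 0.34 in APC RNAi and 0.45 in Bcat RNAi, and that of the lower set -0.28 and -0.36. The values in control are larger, 0.53 to 0.54 in size, but the sets were chosen there.

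**Figure D5:**
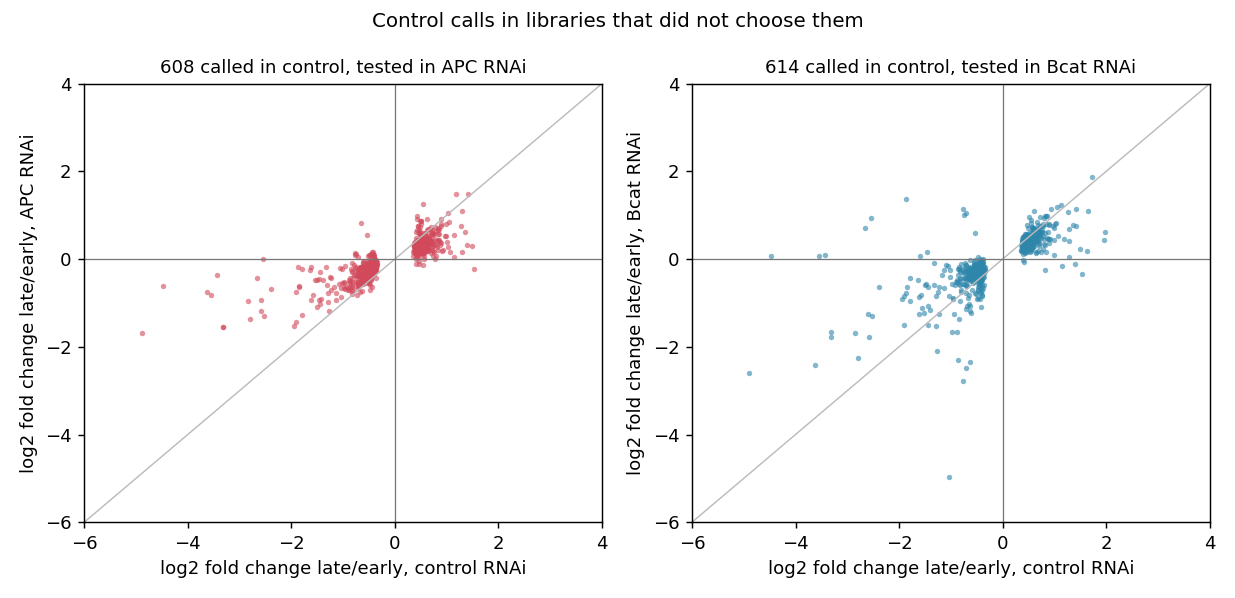
Log2 fold change of late over early days in control (horizontal) against the same in APC RNAi (left) and Bcat RNAi (right), for transcripts called in control; each point is 1 transcript and the diagonal marks equal change. Most points lie in the quadrants of equal direction, 277 of 282 rises and 307 of 326 falls in APC RNAi, and many of the large control falls lie nearer 0 in the knockdowns.

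Fewer transcripts were called within each knockdown. In APC RNAi 45 (0.152% of 29638) were higher and 26 (0.0877%) lower late. Of those 45, 21 were among the control rises (46.7% of the APC RNAi list, 7.45% of the control rises tested there). Of the 26, 21 were among the control falls (80.8% and 6.44%). In Bcat RNAi 0 transcripts (0%) were higher and 2 (0.00564% of 35445) lower, and neither of the 2 was a control call. At an unadjusted p under 0.05 the edgeR test gave 6989 transcripts in control, 2866 for APC RNAi and 4301 for Bcat RNAi. A difference in the number of calls between treatments was not tested and does not show that more changed in control.

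Most of the 55 large falls also went down in the knockdowns, with 52 of 53 lower in APC RNAi and 46 of 54 in Bcat RNAi. Of these, 12 in APC RNAi and 20 in Bcat RNAi fell at least 2-fold there. Some of the largest control falls were among the exceptions in Bcat RNAi. Transcripts with log2 ratios of -4.48, -3.55 and -3.43 in control had 0.06, 0.08 and 0.09 there. In APC RNAi the median log2 level of the 55 was -0.71 on day 4, -0.61 on day 5 and -0.84 on day 6, relative to its own early mean. In Bcat RNAi the 55 had left the day 1 level by day 2, with medians of 0.47 on day 1, -0.08 on day 2 and -0.39 on day 3. The 25 large rises moved at the same step there, from a median of -0.43 on day 1 to 0.17 on day 2. With 1 library per day, a shift of the day 1 library cannot be told apart from an earlier change. On day 5 of APC RNAi the 328 falls together stood at -0.04, between -0.31 on day 4 and -0.43 on day 6. That library had the lowest share of all 18 in transcripts averaging under 1 CPM in control, 0.557%, and its part in these medians was not tested.

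The named transcripts are described there by day. In the main interaction fit below, none of those named for late against early was called as different from control. SmedASXL_006360 went from 60 CPM on day 1 and 64.5 CPM on day 2 to 28.9, 17.1, 8.86 and 21.5 CPM on days 3 to 6 in APC RNAi. In Bcat RNAi it fell 20.1-fold between days 1 and 2, from 60.3 to 3 CPM, and then stood at 10.9, 7.76, 1.44 and 3.22 CPM. The sharp drop thus lay between days 3 and 4 in control and between days 1 and 2 in Bcat RNAi, with 1 library behind each point. SmedASXL_004185 went from 177 CPM on day 1 to 54 CPM on day 6 in APC RNAi. In Bcat RNAi it had 84.2, 28.8 and 18.8 CPM on days 1 to 3 and 25.1, 6.09 and 7.71 CPM on days 4 to 6, so the groups overlapped. SmedASXL_010173 rose in APC RNAi, from 2.05 CPM ± 0.49 to 5.83 CPM ± 1.68 (SD, n = 3), a log2 ratio of 1.48 ± 0.21 (SE; edgeR adjusted p = 0.00694). SmedASXL_008433 was nearly absent in APC RNAi, with 0 to 27 reads per library, and went from 0.181 CPM on day 1 to 9.18 CPM on day 6 in Bcat RNAi. Late against early, both falls were called in APC RNAi (edgeR adjusted p = 0.0192 for SmedASXL_006360 and 0.00694 for SmedASXL_004185). In Bcat RNAi none of these transcripts was called. Adjusted p was 0.258 and 0.247 for these falls, 0.22 for SmedASXL_008433 and 0.196 for SmedASXL_010173 (edgeR).

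Whether the change over time itself differed from control was tested as an interaction over all 18 libraries. For APC RNAi 0 of 40920 transcripts (0%) were called by edgeR, with 2404 at an unadjusted p under 0.05, and DESeq2 also called 0. For Bcat RNAi 1 transcript (0.00244%) was called, with 1317 at an unadjusted p under 0.05. With day as replicate block, 22 transcripts had a higher and 1 a lower change in APC RNAi than in control, and 13 had a higher and 6 a lower one in Bcat RNAi. The blocked differences include SmedASXL_004185 in APC RNAi, 2.10 ± 0.39 on the log2 scale (SE; edgeR adjusted p = 0.0445), a transcript named for its large fall in the same control libraries. That of SmedASXL_006360 was 3.29 ± 0.71 in APC RNAi (SE; edgeR adjusted p = 0.0685) and 2.72 ± 0.77 in Bcat RNAi (adjusted p = 0.335), and neither passed. Without APC RNAi day 3 the count for APC RNAi, with no block, was 57 higher and 3 lower.

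The called transcript for Bcat RNAi was SmedASXL_068695. In control it was highest on day 2 and went down at every later step, with 57.3, 64.5 and 46.5 CPM on days 1 to 3 and 33, 26.9 and 22.2 CPM on days 4 to 6, a log2 ratio of -1.04 ± 0.13 (SE; edgeR adjusted p = 0.000579). In Bcat RNAi it had 45.9, 33.3 and 18.3 CPM and then 2.75, 0.332 and 0.166 CPM, the last on 9 reads. Within Bcat RNAi the log2 ratio was -4.98 ± 0.61 and missed the threshold (SE, edgeR adjusted p = 0.0516). The groups did not overlap in either treatment, and in control 11.1% of all tested transcripts lay apart in this direction. The fall was steeper in Bcat RNAi by -3.90 ± 0.56 log2 units (SE, edgeR adjusted p = 0.0114). The call of this difference was lost without control day 3 (adjusted p = 0.0525), control day 4 (0.0599) or Bcat RNAi day 5 (0.0599), with log2 differences of -3.81, -3.74 and -3.47 (edgeR). It was also lost with DESeq2 (adjusted p = 0.313), with only transcripts of at least 1 CPM in 3 libraries (0.131, edgeR) and with TMM factors of the transcripts at or above 4 CPM (0.0592, edgeR). It was kept in 19 of 25 alternative analyses. These include leaving out each APC RNAi library, which enters the difference only through shared scaling and spread. The call was kept in each of those.

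The authors' deposited table compares APC RNAi with Bcat RNAi over all days and uses no control library. Among tested transcripts of at least 1 CPM, it lists 31.9% as higher in APC RNAi and 21% as higher in Bcat RNAi. Of the 275 control rises of at least 1 CPM, the authors' deposited table lists 201 (73.1%) as higher in Bcat RNAi and 4 (1.45%) as higher in APC RNAi. Of the 314 control falls of at least 1 CPM, the authors' deposited table lists 164 (52.2%) as higher in APC RNAi and 12 (3.82%) as higher in Bcat RNAi. Transcripts that rose late in control were thus mostly listed on the Bcat RNAi side, and those that fell mostly on the APC RNAi side. Rises are on average less abundant than falls. The APC RNAi libraries held smaller shares of transcripts rare in control than the Bcat RNAi libraries on every day, 0.557% to 0.871% against 0.909% to 1.25%. The part of abundance and of these shares in this pattern was not tested. SmedASXL_004185 has a log2 fold change of APC RNAi over Bcat RNAi of 0.77 and SmedASXL_008433 one of -0.86 in the authors' deposited table. The counts lay further apart. SmedASXL_008433 averaged 0.0692 CPM early and 0.295 late in APC RNAi, against 1.99 and 7.43 in Bcat RNAi. SmedASXL_004185 averaged 162 and 56.2 CPM against 43.9 and 13. The reason for this gap was not tested.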

How the data were processed

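Libraries were TruSeq preparations with polyA selection, per the labels' protocols. The submitters' processing notes name bcl2fastq 1.8.3, Bowtie2 2.2.4 and DESeq2 (no version). The authors deposited raw read counts for 82955 SmedASXL transcripts. The placing of reads that fit several transcripts and the use of strand are not given in the sources used, so near-identical transcripts are uncertain. The rows for total and unaligned reads (4.53% to 6.06% unaligned in control) were left out. The authors also deposited a table of log2 fold changes and adjusted p-values from DESeq2 for APC RNAi against Bcat RNAi, listing transcripts at an adjusted p of at most 0.05 per the file headers.

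The counts were tested with edgeR 4.0.16 in R 4.3.3, using its filterByExpr by group, TMM factors, glmQLFit and glmQLFTest. The 6 control libraries were fitted alone, by phase or by day as a number, with 4 residual degrees of freedom; 46180 transcripts with 0.32% of the reads were not tested. Interactions used all 18 libraries as 6 group means, with 12 residual degrees of freedom. P-values were adjusted by Benjamini-Hochberg over every transcript in a fit, and 0.05 was the threshold. CPM are TMM-scaled, within the 6 control libraries for control and over all 18 for the knockdowns, and log2 levels by day use a prior count of 2. DESeq2 1.42.0 was an alternative. The fits were checked on simulated counts drawn as independent libraries. Apart from the changes put in, these had no drift between days, unlike the data, so the effect of such drift was not checked.

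Named transcripts are the 2 largest changes each way with adjusted p under 0.05, a mean of 1 or more on the log2 CPM scale, no overlap between groups, and for interactions at most 2 each way past the threshold with the same minimum over the 12 libraries compared. Comparisons and rules were chosen with earlier results of these data known. Per the labels, equal numbers mean an equal day, which pairs treatments in the interaction; same-day correlations of deviations ranged from 0.0748 to 0.232 between control and APC RNAi and from 0.0117 to 0.217 between control and Bcat RNAi. No 2 control libraries agreed within sampling noise (lowest chi-square per degree of freedom 5.41). P-values measure the spread between these pooled libraries only.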

Additional observations from a re-analysis of the deposited data

Results flagged for a closer look

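The change of SmedASXL_068695 from early to late days differed between treatments by the test of the difference itself: late minus early in Bcat RNAi less the same in control was -3.90 log2 units (± 0.56 SE; edgeR adjusted p = 0.0114), and -3.90 ± 0.4 with day as replicate block (SE; edgeR adjusted p = 3.32e-05). All 3 late Bcat RNAi libraries lay below all 3 early ones, but the fall within Bcat RNAi alone missed the threshold (edgeR adjusted p = 0.0516). The call of the difference was kept in 19 of 25 alternative analyses. These include leaving out each APC RNAi library, which enters only through shared scaling and spread. The call was kept in each of those. It was lost with DESeq2 (adjusted p = 0.313), with only transcripts of at least 1 CPM in 3 libraries (0.131, edgeR), with TMM factors of the transcripts at or above 4 CPM (0.0592, edgeR) and without control day 3, control day 4 or Bcat RNAi day 5 (0.0525 to 0.0599, edgeR), with log2 differences from -3.96 to -3.47 over these 6.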

How the results depend on the processing

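The number of calls depended on the settings. No named transcript reversed its direction in the settings tried, but these reuse the same libraries. Late against early, 447 were higher and 641 lower with no filter beyond 1 read, and 193 were lower with at least 1 CPM in 3 libraries. With TMM factors of the transcripts at or above 4 CPM they were 496 and 175, with the spread of all 18 libraries 9 and 62, and with days 2 and 3 against days 4 and 5 they were 6 and 32. DESeq2 called 1056 lower. Leaving out 1 library gave 13 to 821 higher and 40 to 1599 lower. For slopes, TMM factors of the transcripts at or above 4 CPM gave 3468 up and 1456 down, loess offsets 1706 down, DESeq2 1174 up and the spread of all 18 libraries 1046 up, and leaving out 1 library gave 680 to 1714 up and 1500 to 3382 down.

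For the interactions, day as replicate block gave 22 higher and 1 lower for APC RNAi and 13 and 6 for Bcat RNAi. No filter beyond 1 read gave 22 and 1, and 12 and 2. For Bcat RNAi the lower count was 0 with TMM factors of the transcripts at or above 4 CPM and with at least 1 CPM in 3 libraries. Leaving out 1 library gave 0 to 57 higher and 0 to 3 lower for APC RNAi, and 0 to 3 and 0 to 1 for Bcat RNAi. The 1 transcript called lower for Bcat RNAi by DESeq2 was not SmedASXL_068695.

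The percentage of control rises with the same direction in APC RNAi was 95.2 with TMM factors of the transcripts at or above 4 CPM, 93 with loess offsets, 94.9 with no filter and 93.7 with at least 1 CPM in 3 libraries; in Bcat RNAi it was 99.3 with loess offsets and 99.7 with at least 1 CPM in 3 libraries. With no filter, falls had the same direction in 89.5% in APC RNAi and 89.4% in Bcat RNAi. The causes of these moves were not tested. With 3 pooled libraries a side, small changes and transcripts under 1 CPM are least certain.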
